A study of Mesocricetus auratus with 6 samples.

Results

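The heat shock proteins and their DNAJ partners were examined in 3 tissues of *duper* and wild-type Syrian hamsters. *duper* is a null mutation of *Cry1*, a repressor of the circadian clock. Members were all genes whose symbol marks them as Hspa, Hspb, Hspd, Hspe or Hsph, as Dnaja, Dnajb or Dnajc, or as a heat shock factor (Hsf), together with the cold-inducible *Cirbp* and *Rbm3*. The rule found 72 of the 31593 genes in the tables. They were 8 Hsp70 proteins, 3 Hsp110 proteins, the chaperonin *Hspd1*, 7 small heat shock proteins, 4 DNAJA, 13 DNAJB and 28 DNAJC cochaperones, 4 heat shock factors, 3 proteins that only share the Hsp name or bind an Hsp, and *Rbm3*. *Cirbp*, *Hspe1*, *Hspa1a*, *Hspa1b* and *Hspa1l* were not analysed here. The symbols of the Hsp90 proteins do not match the rule, and these genes were followed as other genes of the pathway.

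RNA-seq had been made from cortex, SCN (the suprachiasmatic nucleus, which holds the central clock) and liver, collected at CT15 from 4 hamsters per genotype, with 1 deposited set of values per genotype and tissue, 6 in all. All hamsters were raised in 14:10 LD with free food and water. Wild-type hamsters were of the LVG stock, and *duper* hamsters descended from animals of the *tau* background crossed to LVG and typed as free of the *tau* allele. The 4 *duper* hamsters were female and the 4 wild-type hamsters were 2 male and 2 female, so sex and genotype cannot be told apart. For cortex and SCN, material of the 4 hamsters was mixed before library making, as tissue by one label and as RNA by another, and the labels state that the liver reads of 4 single-hamster libraries were merged. No tissue therefore had a replicate, and the ages were not given in the sources used here.

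Heat shock proteins bind proteins that are unfolded or newly made. Hsp70 proteins hold and release their clients in cycles of ATP use, DNAJ proteins bring the clients and start the ATP step, and Hsp110 proteins exchange the nucleotide. Small heat shock proteins hold unfolded proteins without ATP, *Hspd1* folds proteins inside mitochondria, and *Hsf1* turns on many of these genes when cells are heated or stressed. Body temperature follows a daily rhythm, and heat shock and cold-inducible RNAs are known to follow it in several tissues.

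The total estimated count ranged from 6788947 to 85748562 per library and was highest in the livers. The 10 most abundant genes took 22.8% to 24.9% of the counts in liver and 2.91% to 3.71% in the brain tissues. *Cry1*, the mutated gene, was at 33.3, 22.9 and 16.8 TPM in the wild-type cortex, SCN and liver and at 8.56, 8.14 and 5.44 TPM in the *duper* tissues, with a log2 fold change of -1.69 and an adjusted p of 0.131 in edgeR across the tissues. TPM is a level scaled for transcript length and library total. The SCN marker *Six6* was at 6.0 to 8.79 TPM in the SCN libraries and 0.204 to 0.31 TPM in cortex, the SCN marker *Prok2* was under 1 TPM in all 6 libraries, and *Avp* and *Vip* were not analysed here.

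Chaperone RNA was abundant in all 3 tissues, and *Hspa8* led it everywhere. *Hspa8*, the constitutive Hsp70 of the cytosol, was at 2257, 2302 and 1707 TPM in wild-type cortex, SCN and liver and at 2497, 2334 and 1405 TPM in the *duper* libraries. It took 26.9% to 33.2% of the summed level of the 72 genes, which was 7041 to 7514 TPM in the brain libraries and 5218 to 5244 TPM in liver. *Hspa5* (BiP), the Hsp70 of the endoplasmic reticulum (ER), was second in every library at 475 to 1311 TPM. The 5 highest genes took 49.0% to 52.1% of the sum in the brain tissues and 67.3% in each liver. In brain those 5 were *Hspa8*, *Hspa5*, *Dnaja1*, *Hsph1* and *Hspd1*. In the wild-type liver *Hspa9* stood in place of *Hsph1*. In the *duper* liver *Hspa9* and *Dnajc3* stood in place of *Hsph1* and *Dnaja1*.

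The other members were spread over a wide range, and 53 of the 72 were at 1 TPM or more in all 6 libraries. Summed over their 28 genes, the DNAJC cochaperones stood at 1525 to 1590 TPM in brain. *Hsf1*, the main heat shock factor, was at 44.0, 42.4, 55.9, 55.0, 13.7 and 13.3 TPM in wild-type cortex, *duper* cortex, wild-type SCN, *duper* SCN, wild-type liver and *duper* liver. *Rbm3*, a cold-inducible RNA-binding protein, was at 117, 124, 87.2, 86.6, 27.2 and 30.1 TPM in the same order. For both genes the pair of genotypes within a tissue lay closer together than the tissues did. *Dnajb7*, *Dnajb8*, *Dnajc5b*, *Dnajc5g*, *Hspb3* and *Hspb9* had too few counts to be tested across libraries, which left 66 members among 18275 genes tested.

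**Figure D1:**
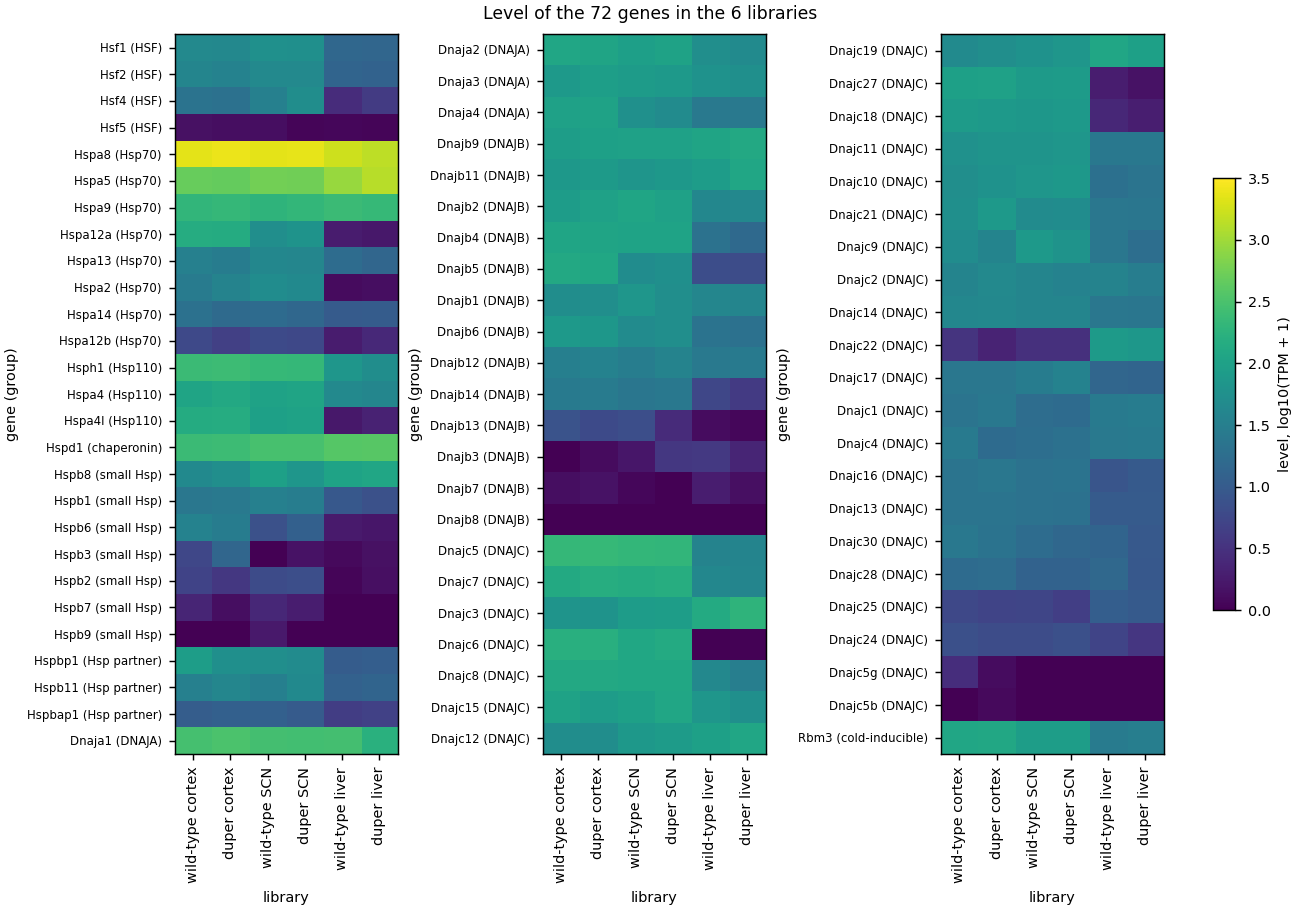
Level of the 72 genes (rows, with their group in brackets) in the 6 libraries (columns), as log10(TPM + 1) by colour, 1 library per column. *Hspa8* is the highest row in every column, at 1405 to 2497 TPM, and several genes such as *Dnajc6* and *Hspa2* are dark in the liver columns alone.

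Across the 3 tissues, no chaperone gene was called between the genotypes. In edgeR's quasi-likelihood test with tissue in the model, in which the tissues stand in for replicates, 0 of the 66 members passed a Benjamini-Hochberg adjusted p under 0.05 with a log2 fold change over 0.58, and the lowest adjusted p of a member was 0.998. Over all genes the same rule called 0.00547%. DESeq2 and every other alternative also called 0 members. With library size scaling 1 gene of all tested was called, and for the other alternatives the share of all genes is not given here. The paper's own DESeq2 comparison, adjusted for tissue, reported genes that differed between the genotypes and a significant reduction of *Cry1*. At an unadjusted p under 0.05 there was 1 member, or 1.52% against 3.32% of all genes tested. The median log2 fold change of the members was 0.03, beside 0.01 over all genes, and 63 of the 66 were within 0.58 of 0. The median standard error (SE) of the members, worked back from the test statistic, was 0.14.

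That member was *Dnajc9*, a cochaperone that also binds histones. It was at 49.5 TPM in the wild-type and 37.2 TPM in the *duper* cortex. The SCN pair was at 74.5 and 61.9 TPM and the liver pair at 23.2 and 17.4 TPM. The *duper* level was below the wild-type level in all 3 tissues, with a log2 fold change of -0.31 ± 0.12 (SE, 6 libraries) and an adjusted p of 0.998 in edgeR. Among members with the same sign in every tissue, the largest negative values were those of *Dnajb13* (-1.07 ± 0.52, SE), *Hspb7* (-1.03 ± 0.80) and *Hsf5* (-0.94 ± 0.65), which are all low. The largest positive values were those of *Dnajb11* (0.31 ± 0.15), *Hspa4l* (0.25 ± 0.18), *Dnajb12* (0.21 ± 0.11), *Dnajc10* (0.20 ± 0.11) and *Dnajc12* (0.20 ± 0.13), and none of these passed. The log2 fold change was 0.01 ± 0.12 for *Hsf1* and 0.12 ± 0.13 for *Rbm3*.

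The other pathway genes gave 0 calls in edgeR for genotype. That held for the 4 Hsp90 genes, 24 Hsp70 and Hsp90 cochaperones, 8 subunits of the TRiC chaperonin, 13 ER stress targets, 10 heat-inducible genes and 8 temperature-linked clock genes. Of these lists, the clock genes held 1 gene at an unadjusted p under 0.05, the mutated *Cry1*, and the others held 0. Their median log2 fold changes were 0.13, 0.04, 0.08, 0.26, 0.08 and 0.15 in that order. The lists share genes, so they are not independent here or below. *Hsp90b1* and *Hyou1* are also ER stress targets, and *Hsp90aa1* and several cochaperones, such as *Stip1* and *Ahsa1*, are also heat-inducible genes.

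Within each tissue the genotypes can be compared only as 1 value against 1, with no test. Genes averaging 1 TPM or more were taken, and a member was counted when its log2 ratio of TPM plus 1, *duper* over wild type, was beyond 0.58. In cortex 1 of 65 members was higher and 4 were lower, or 1.54% and 6.15%, beside 8.24% and 7.75% of all genes. In SCN 3 of 65 were higher and 1 was lower, or 4.62% and 1.54%, beside 6.67% and 7.70% of all genes. In liver 1 of 56 was higher and 3 were lower, or 1.79% and 5.36%, beside 4.75% and 10.5% of all genes. The differences between these shares were not tested, and in liver TMM-normalized CPM gave 5 members higher in place of 1. Fewer cells of a type and less RNA per cell cannot be told apart in these bulk tissues.

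In liver, *Hspa5* and several of its ER partners had higher values in *duper*, with no replicate and each by less than the fold of 0.58 on TPM. TMM-scaled CPM gave larger liver ratios for the ER lumen list below (median 0.51 in place of 0.33), so staying under the fold depended on the scaling. *Hspa5* stood at 910 TPM in the wild-type and 1311 TPM in the *duper* liver (log2 ratio 0.53, 95% counting interval 0.51 to 0.54). Its partner *Dnajb11* (ERdj3) was at 84.2 and 118 TPM, a log2 ratio of 0.48. *Dnajc3*, an ER cochaperone that also restrains the stress kinase PERK, was at 136 and 186 TPM, a log2 ratio of 0.45. In cortex and SCN the same 3 genes had log2 ratios from -0.06 to 0.13.

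The 6 members listed here for the ER lumen had positive log2 ratios in liver, from 0.07 for *Dnajc1* to 0.53 for *Hspa5*. Their median was 0.33, with none past the fold on TPM. The list does not hold every ER member. *Hspa13* (STCH), an Hsp70 relative of the same organelle that is not on it, went the other way, with 16.3 TPM in the wild-type and 13.4 TPM in the *duper* liver (log2 ratio -0.26). The list also held *Dnajb9* (ERdj4), at 111 and 128 TPM, and the disulfide reductase *Dnajc10*, at 18.5 and 21.4 TPM. The median over all genes in liver was -0.10. In cortex 4 of the 6 were positive, with a median of 0.14, and in SCN 3 of 6, with a median of -0.01. This list was drawn up after the levels had been seen.

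Of 13 ER stress targets outside the members, 8 were past the fold in the *duper* liver, all higher, and the median log2 ratio was 0.67. Over all genes 4.75% were past the fold and higher in that liver. The list was chosen with earlier results of these data known. *Creld2* went from 64.0 TPM in wild type to 167 TPM in *duper* (log2 ratio 1.37). The disulfide isomerase *Pdia4* was at 184 and 385 TPM, a log2 ratio of 1.06. *Hsp90b1* (GRP94), the Hsp90 of the ER, was at 750 and 1192 TPM, a log2 ratio of 0.67. *Ddit3* (CHOP), a transcription factor of prolonged ER stress, was at 34.8 and 27.6 TPM and *Herpud1* at 238 and 217 TPM, both lower in *duper*. The list's medians in cortex and SCN were 0.06 and 0.00, with none of the 13 past the fold.

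These liver values compare 1 merged library with another. On TMM-scaled CPM the medians were 0.51 for the ER lumen members and 0.85 for the ER stress targets, beside 0.05 over all genes. Beside them, the 4 macrophage markers summed to 224 TPM in the wild-type liver and 384 TPM in the *duper* liver, the 6 hepatocyte markers to 136872 and 147208 TPM, and the acute-phase gene *Fgb* was at 2493 and 5805 TPM. Their part in the result was not tested. Across the tissues the 6 ER lumen members had log2 fold changes of 0.12 to 0.31, none of which passed. Without the livers the value was -0.05 for *Hspa5* and -0.05 for *Dnajc3*. It was 0.11 for *Dnajb11*, 0.11 for *Dnajc10*, 0.09 for *Dnajc1* and 0.03 for *Dnajb9*.

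**Figure D2:**
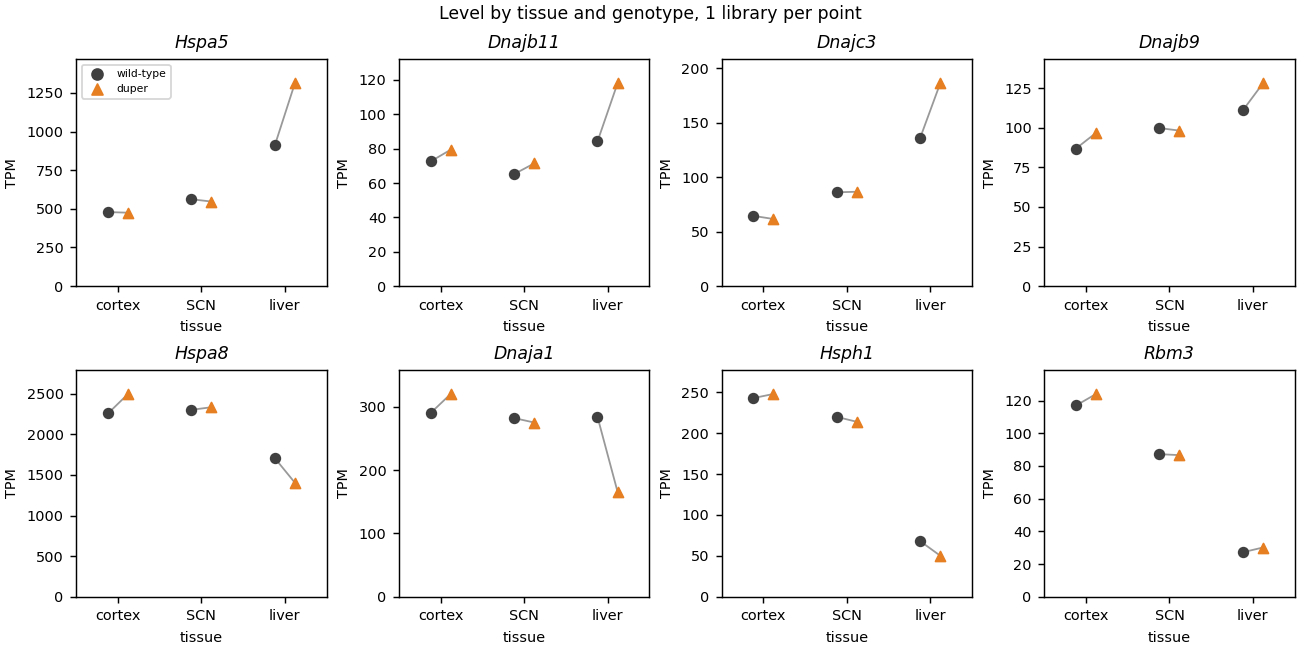
Level (TPM, linear axes from 0) of 8 members by tissue, with circles for wild-type and triangles for *duper* libraries, 1 library per point and no error bars because there was no replicate. *Hspa5* goes from 910 to 1311 TPM and *Dnaja1* from 284 to 166 TPM between the livers, while the pairs in cortex and SCN lie close together.

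*Dnaja1*, a DNAJ partner of cytosolic Hsp70, was lower in the *duper* liver. Wild-type and *duper* cortex were at 290 and 320 TPM, the SCN pair was at 282 and 275 TPM, and the liver pair at 284 and 166 TPM. The liver log2 ratio was -0.77 with a counting interval of -0.80 to -0.75, and the other 5 libraries lay at 275 to 320 TPM. *Hsph1*, an Hsp110 protein, was at 68.0 and 50.2 TPM in liver, a log2 ratio of -0.43, and *Hspa8* had a liver log2 ratio of -0.28.

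Of 10 heat-inducible members measured in liver, also listed after the levels had been seen, 8 had a negative log2 ratio and the median was -0.22, beside -0.10 over all genes. On TMM-scaled CPM the median was -0.04 with 5 positive and 5 negative, so this direction depended on the scaling. In cortex 10 of 11 were positive with a median of 0.07, and in SCN 5 of 11 with a median of -0.04. The 10 heat-inducible genes outside the members had medians of 0.16, -0.04 and 0.01 in cortex, SCN and liver. For the 7 mitochondrial members, a list of the same late origin, the medians were 0.09, 0.10 and -0.14, and for the 8 TRiC subunits 0.10, -0.04 and 0.04. The medians in the same order were 0.10, 0.05 and 0.07 for the Hsp90 genes, 0.05, 0.03 and -0.04 for the Hsp70 and Hsp90 cochaperones, and 0.01, 0.12 and -0.06 for the clock genes.

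**Figure D3:**
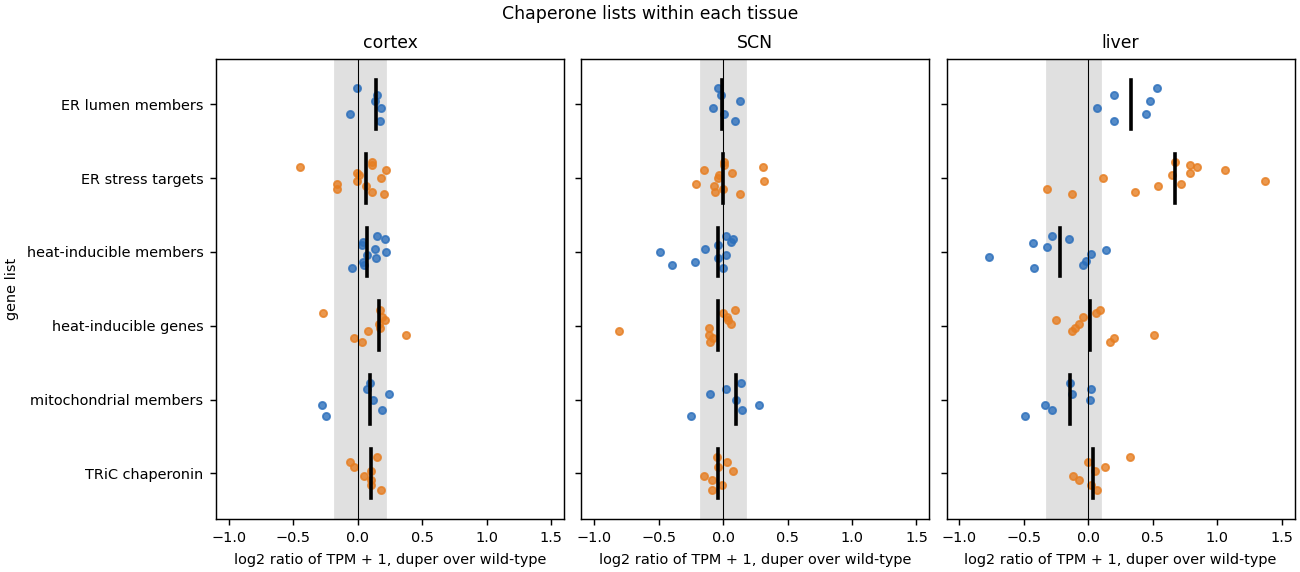
Log2 ratio of TPM + 1, *duper* over wild type, in cortex, SCN and liver for 6 gene lists, with 1 point per gene (blue for members, orange for other pathway genes), a black bar at each list's median and a grey band between the lower and upper quartile of all genes. The ER stress targets have a median of 0.67 in liver and of 0.06 and 0.00 in cortex and SCN.

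Other single-tissue differences were in genes of low or moderate level. *Hsf4*, a heat shock factor best known from the lens, was at 20.7 and 19.2 TPM in wild-type and *duper* cortex. In SCN the pair was at 32.6 and 50.3 TPM and in liver at 1.74 and 3.12 TPM. Its log2 ratios of 0.61 in SCN and 0.59 in liver were past the fold, and the cortex value was -0.11. *Hspb6*, a small heat shock protein of muscle and brain, was at 6.49 and 10.9 TPM in SCN, a log2 ratio of 0.66. *Dnajb13*, a protein of cilia and sperm tails, was at 5.99 and 1.71 TPM in SCN, a log2 ratio of -1.37. These levels came from 93 and 6 counts (counting interval -3.29 to -0.63). In the same pair of libraries 3 choroid plexus markers summed to 177 and 29.1 TPM. Of this, *Ttr*, which was also listed as a hepatocyte marker, held 165 and 24.1 TPM. *Aqp1* was at 10.2 and 3.75 TPM and *Kl* at 1.23 and 1.26 TPM. The 6 markers of ependyma and motile cilia summed to 92.2 and 82.8 TPM. In wild-type and *duper* cortex *Dnajb13* was at 6.76 and 5.11 TPM, and the markers went the other way. There the choroid plexus sum was 1855 and 2516 TPM, with *Ttr* at 1837 and 2505 TPM, and the ependyma and cilia sum 54.4 and 89.3 TPM. The part of these markers in the result was not tested. The low *Dnajb3* had 0.625 TPM in the SCN of wild type against 2.64 TPM in *duper*, from 8 and 8 counts (counting interval 0.47 to 3.69). Its liver pair was at 2.79 and 1.27 TPM.

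In cortex, *Hspbp1*, which binds Hsp70 and promotes nucleotide release from it, went from 87.9 TPM in wild type to 54.7 TPM in *duper* (log2 ratio -0.67, counting interval -0.89 to -0.48). *Dnajc4* was at 27.1 and 15.9 TPM, a log2 ratio of -0.73. *Hspb3*, a small heat shock protein of muscle, was at 4.61 and 13.1 TPM, from 8 and 35 counts (counting interval 0.38 to 2.83). *Dnajc5g* was at 1.84 and 0.304 TPM, from 8 and 2 counts (-5.87 to -0.28). In liver *Dnajc28* was at 14.2 and 8.07 TPM, a log2 ratio of -0.74.

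Liver was compared with the brain tissues in the same fit. Against the mean of cortex and SCN, with both genotypes in 1 fit, edgeR called 20 of 66 members higher and 14 lower in liver (adjusted p under 0.05, log2 fold change over 1). Those shares of 30.3% and 21.2% stood beside 26.5% and 29.8% of all genes. The higher calls depended on the scaling. Library size in place of TMM moved the median of all genes by -1.21 on the log2 scale and gave 7 members higher and 34 lower. Of the 18275 genes tested, 2238 were higher and 9673 lower under that scaling. Called under both scalings were 7 members higher, or 10.6% beside 12.2% of all genes, and 14 lower, or 21.2% beside 29.8% of all genes.

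The members higher in liver under both scalings were *Dnajc22*, *Dnajc25*, *Dnajc3*, *Hspa5*, *Dnajc19*, *Hspb8* and *Dnajc12*. *Dnajc22* was at 1.21 to 2.41 TPM in the 4 brain libraries and at 78.6 and 70.7 TPM in the livers, a log2 fold change of 6.89 ± 0.19 (SE) with TMM and 5.69 with library size (edgeR adjusted p = 2.85e-07). *Hspa5* was at 475 to 562 TPM in brain and 910 and 1311 TPM in liver, with 2.67 ± 0.22 and 1.46 on the 2 scalings (edgeR adjusted p = 3.57e-05). Its ER partner *Dnajc3* had 2.69 ± 0.17 and 1.47. *Dnajc12*, a partner of the hydroxylases of aromatic amino acids, was at 50.5 to 82.5 TPM in brain and 97.9 and 115 TPM in liver, with 2.25 ± 0.13 and 1.04. *Dnajc19*, of the mitochondrial inner membrane, had 2.49 ± 0.15 and 1.28. *Hspb8*, which works with *Bag3* in the removal of misfolded proteins, had 2.40 ± 0.18 and 1.18. In each of these genes the liver levels lay above all 4 brain levels.

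The 14 members lower in liver under both scalings included several at the edge of detection there. *Dnajc6* (auxilin), which uncoats clathrin vesicles in neurons, was at 122 to 160 TPM in the brain libraries and 0.0193 and 0.057 TPM in the livers, a log2 fold change of -10.21 ± 0.33 with TMM (edgeR adjusted p = 4.75e-07). *Hspa2*, an Hsp70 needed in sperm formation, was at 27.3 to 49.0 TPM in brain and 0.249 and 0.333 TPM in liver (-5.49 ± 0.25). *Hspa4l*, an Hsp110 protein, was at 97.7 to 145 TPM in brain and 0.706 and 1.13 TPM in liver (-5.45 ± 0.25), while its relatives *Hspa4* and *Hsph1* were at 39.1 to 68.0 TPM there. *Hspa12a*, a distant Hsp70 relative, was at 52.1 to 147 TPM in brain and 0.876 and 0.666 TPM in liver (-5.31 ± 0.17). *Dnajc27* had -5.46 ± 0.22 and *Dnajc18* -4.41 ± 0.18. Among the small heat shock proteins, *Hspb7* (-3.92 ± 0.96), *Hspb6* (-3.02 ± 0.36) and *Hspb2* (-2.58 ± 0.69) were lower, against the higher *Hspb8*. *Hsf4* (-2.03 ± 0.29), *Dnajb13* (-2.66 ± 0.58), *Dnajb5* (-2.33 ± 0.13), *Dnajb14* (-1.20 ± 0.15) and *Dnajb4* (-1.12 ± 0.11) completed the 14.

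For several cytosolic and mitochondrial members the direction rested on the scaling. *Hspa8* had a log2 fold change of 0.97 ± 0.20 with TMM, -0.24 with library size and -0.60 on log2(TPM + 1) in limma. *Dnaja1* had 1.16 ± 0.17 with TMM, at which it was called, -0.04 with library size and -0.42 on log2(TPM + 1). *Dnaja3* and *Dnajb1*, also called higher with TMM (1.05 ± 0.11 and 1.02 ± 0.14), had -0.16 and -0.19 with library size. *Hsf1* had -0.29 ± 0.13 with TMM and -1.50 with library size, and *Rbm3* -0.26 ± 0.13 and -1.48, and neither gene was called with TMM. Of the 6 ER lumen members 5 were called higher with TMM and 2 with both scalings, and of the 7 mitochondrial members 4 with TMM and 1 with both.

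The other pathway lists were read under both scalings, beside the shares of all genes given above (26.5% higher and 29.8% lower with TMM). With library size, 2238 of the 18275 genes were higher and 9673 lower. Of the 13 ER stress targets 11 were called higher and 0 lower with TMM, and 5 and 0 with library size. Of the 24 cochaperones 7 were higher and 1, *Bag2*, lower with TMM, and 2 and 4 with library size. Of the 4 Hsp90 genes *Hsp90b1* and *Trap1* were higher and 0 lower with TMM, and 2 and 1 with library size. Of the 8 TRiC subunits *Cct5* alone was higher with TMM, and with library size 0 were higher and 1 lower. Of the 10 heat-inducible genes 4 were higher and 1 lower with TMM, and 0 and 3 with library size. Of the 8 clock genes 0 were higher on either scaling, and *Nr1d1* and *Arntl* were lower with TMM and 5 with library size. The heat-inducible gene lower with TMM was *Cryab*, at 362 to 729 TPM in the brain libraries and 1.02 and 1.88 TPM in the livers.

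**Figure D4:**
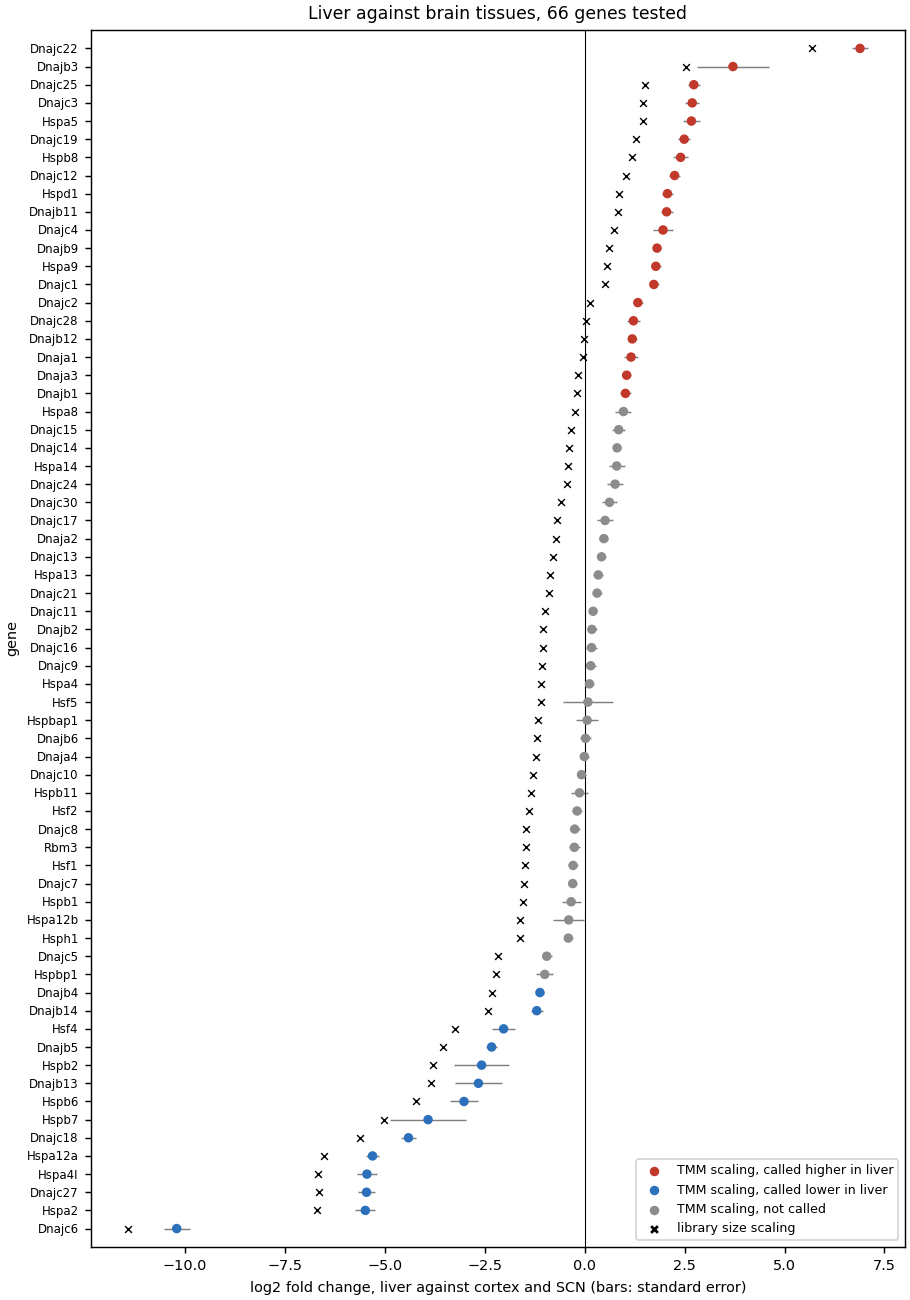
Log2 fold change of the 66 tested members in liver against cortex and SCN (x axis), sorted by value, with circles and bars for the TMM estimate ± SE in edgeR and crosses for library size scaling. Each SE was worked back from the test statistic. The 20 red circles are called higher and the 14 blue ones lower with TMM, and the crosses lie to the left of the circles throughout.

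Between the brain tissues few members were called. edgeR called 0 of 66 members higher and 3 lower in SCN than in cortex, beside 2.71% and 4.86% of all genes. The lower members were 4.55% of those tested. At an unadjusted p under 0.05 there were 17 members, or 25.8% beside 26.9% of all genes. DESeq2 called 0 higher and 4 lower, the added gene being *Hspb3*, which the filter used with edgeR had left out. The share of all genes called by DESeq2 is not given here.

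The 3 lower members were *Hspb6*, *Hspa12a* and *Dnajb5*. *Hspb6* was at 34.7 and 28.4 TPM in wild-type and *duper* cortex and 6.49 and 10.9 TPM in SCN, a log2 fold change of -1.95 ± 0.36 (SE, edgeR adjusted p = 0.0183). *Hspa12a* was at 147 and 141 TPM in cortex and 52.1 and 61.3 TPM in SCN (-1.34 ± 0.15, edgeR adjusted p = 0.00298). *Dnajb5*, a DNAJB cochaperone, was at 129 and 121 TPM in cortex and 49.3 and 54.6 TPM in SCN (-1.28 ± 0.14, edgeR adjusted p = 0.0028). In all 3 genes both cortex levels were above both SCN levels. Without the wild-type cortex library 0 of them were called, without the *duper* cortex library 1 (*Dnajb5*) and without the wild-type SCN library 2 (not *Hspb6*), with log2 fold changes between -2.24 and -1.15 in these fits. In the same libraries 4 markers of cortical projection neurons summed to 993 and 914 TPM in cortex and 21.3 and 16.7 TPM in SCN, and their part in the result was not tested.

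A few other members were near the limits. *Dnaja4* was at 99.1 and 102 TPM in cortex and 56.4 and 48.1 TPM in SCN, with a log2 fold change of -0.91 ± 0.14 that passed the adjusted p (0.00987, edgeR) but not the fold. *Dnajc9* was higher in SCN by 0.66 ± 0.15 (edgeR adjusted p = 0.038), also under the fold. *Hspb8* was at 45.2 and 52.9 TPM in cortex and 95.4 and 67.5 TPM in SCN (0.74 ± 0.22, edgeR adjusted p = 0.083). *Rbm3* had -0.47 ± 0.15 and *Hsf1* 0.38 ± 0.15, and neither passed. Of the other pathway lists, the clock genes held 1 call, *Per1*, lower in SCN by a log2 fold change of -1.35 ± 0.17, and the others held 0 in edgeR. All 8 TRiC subunits had positive values, from 0.22 to 0.60, of which 5 were at an unadjusted p under 0.05.

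**Figure D5:**
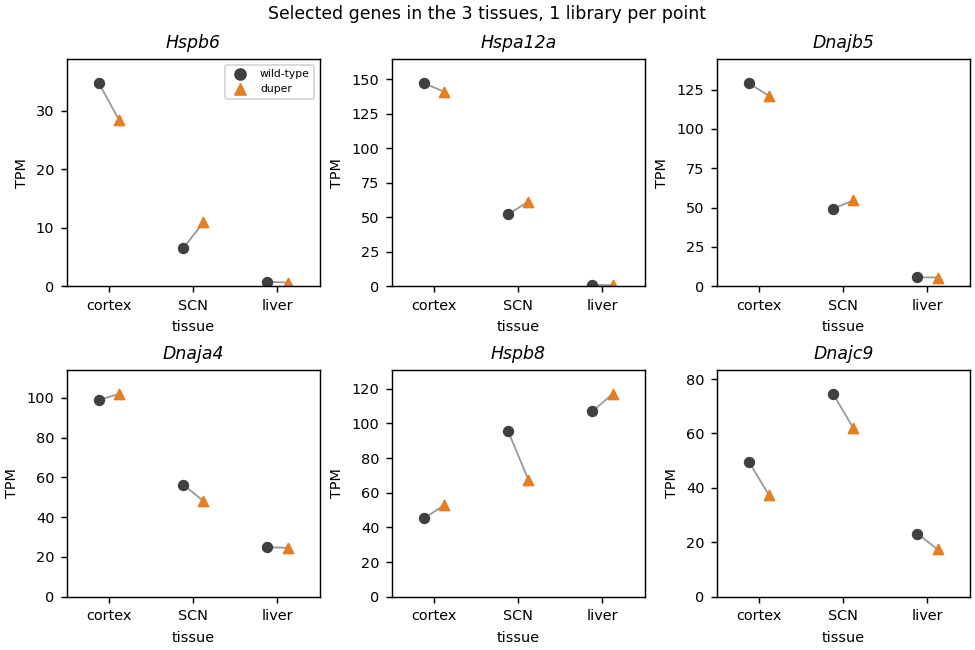
Level (TPM, linear axes from 0) of 6 members by tissue, with circles for wild-type and triangles for *duper* libraries, 1 library per point and no error bars because there was no replicate. *Hspb6*, *Hspa12a*, *Dnajb5* and *Dnaja4* sit higher in both cortex libraries than in both SCN libraries, and *Hspb8* and *Dnajc9* sit lower.

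The deposited transcript tables matched all 72 members, 33 of them with 1 transcript, and 432 of 432 gene levels lay within 1% of the sum over their transcripts. Among 17 members with several transcripts, at least 5 TPM in every library and the same leading transcript in all libraries of brain and of liver, 2 had another leading transcript in liver than in brain. *Dnajc5*, the cysteine string protein of synaptic vesicles, had 85.6% to 92.0% of its level in a transcript of 4133 bases in brain and 40.6% to 46.8% in liver, where a transcript of 4214 bases held 53.2% to 59.4%. *Dnajc13*, a DNAJ protein of endosomes, had 28.6% to 48.2% of its level in a transcript of 7659 bases in brain and 92.1% to 92.5% in liver. Its leading transcript in brain, of 7786 bases, held 40.5% to 54.1% there. In *duper* SCN that lead was narrow, at 51.8% against 48.2%. The rule itself kept only members whose genotypes shared the leading transcript, so that sharing is no result. The shares are estimates with no error given.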

How the data were processed

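The members and gene lists were chosen with earlier results of these data known. RNA extracted with TRIzol was made into TruSeq Stranded mRNA libraries and sequenced in pairs on an Illumina HiSeq. The authors quantified reads with Kallisto (version not given in the sources used here) against the reference they name MesAur2.0, summed transcripts per gene with tximport, and deposited estimated counts, not normalized, and TPM.

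The estimated counts, after rounding, went into edgeR 4.0.16 under R 4.3.3, with filterByExpr on genotype, TMM factors and a quasi-likelihood fit on tissue and genotype that left 2 residual degrees of freedom. The study's tool, DESeq2 (1.42.0 here), and limma 3.58.1 on TPM were alternatives, as were library size scaling, other filters, the likelihood ratio test, transcript length offsets, no tissue term and left-out libraries. The 3 tissues came from the same hamsters, so p-values measure only the spread between these libraries. Each SE beside an edgeR value was worked back from that value and its quasi-likelihood F statistic, and was not an output of the fit. Such an SE restates the test and is no separate measure of precision. For *Dnajc6*, with 4 and 15 counts in the livers, the ± 0.33 may not show how uncertain the value is. Ratios within a tissue used TPM with a pseudocount of 1. Intervals (Clopper-Pearson, 95%, scipy 1.17.1) hold only counting error and belong to the ratio with no pseudocount. The edgeR step was tested on simulated data, in which it recovered most large changes, missed many smaller ones and called more unchanged genes than the nominal rate. Named were a fixed list of 36 members present, the 5 largest genotype values each way with 1 sign in all tissues, the 10 largest tissue calls each way, and members past the fold within a tissue with an interval off 0. Members named outside this rule were chosen after their values were seen. Sequences were not analysed here. Python 3.11.15, numpy 2.4.6, pandas 2.3.3 and matplotlib 3.10.9 were used.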

Additional observations from a re-analysis of the deposited data

Results flagged for a closer look

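*Dnajb3* moved in opposite directions in 2 tissues. Its log2 ratio, *duper* over wild type, was 1.16 within SCN and -0.74 within liver. Each value compares 1 library with 1 other at levels under 3 TPM, and the difference between the tissues was not tested.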

How the results depend on the processing

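No paired analysis was possible because the labels carry no replicate numbers to add as a block. The model's tissue and genotype terms already compare the genotypes within tissues and the tissues within genotypes. The genotype count stayed at 0 under every alternative run. Liver against brain, 20 members were higher and 14 lower, but 7 and 34 with library size scaling. Of the 18275 genes tested, 2238 were higher and 9673 lower under that scaling. The member counts were 4 and 38 with limma on log2(TPM + 1), and 5 and 39 with limma on log2(TPM + 0.1). The shares of all genes are not given here for the limma fits or for the alternatives that follow in this paragraph. Leaving out each library gave 18 to 21 higher and 13 to 15 lower. SCN against cortex, the 0 higher became 1 with library size scaling (*Hsf4*) and 1 with no fold threshold (*Dnajc9*), and leaving out each library gave 0 to 1 higher and 0 to 4 lower. Within cortex, a mean of at least 5 TPM left 2 lower in place of 4. Within SCN, TMM-normalized CPM gave 0 higher in place of 3, and the 1 lower became 2 with a pseudocount of 0.1, 2 with no minimum TPM and 0 with at least 5 TPM. Within liver, the 1 higher became 2 with a pseudocount of 0.1, 5 with TMM-normalized CPM and 0 with at least 5 TPM, and the 3 lower became 6 with a pseudocount of 0.1. The cause was not tested, except that higher minima leave fewer genes.

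Many small fold changes had another sign in at least 1 alternative. This held for 34 of 66 members for genotype, at values up to 0.39 in size, for 28 of 66 in liver against brain, up to 1.33, and for 27 of 66 in SCN against cortex, up to 0.26. The genotype log2 fold changes of named members that turned sign were as follows. With DESeq2, the value was 0.0078 for *Dnaja2*. With library size scaling, values were -0.01 for *Dnaja3*, -0.0042 for *Dnajb2*, -0.04 for *Dnajb5*, -0.03 for *Dnajb6*, -0.05 for *Hsf1*, -0.05 for *Hsf2*, -0.05 for *Hspa8* and -0.06 for *Hspb8*. Without the tissue term, values were -0.06 for *Dnajb5*, -0.0027 for *Hsf1*, -0.02 for *Hspa8*, -0.01 for *Hspb2* and -0.09 for *Hspb6*. With limma on log2(TPM + 1), values were -0.04 for *Dnajb6*, -0.04 for *Hsf1*, -0.07 for *Hsf2*, 0.00092 for *Hspa12a*, -0.0075 for *Hspa12b*, -0.04 for *Hspa8*, -0.0051 for *Hspb2* and -0.04 for *Hspb8*. With limma on log2(TPM + 0.1), values were -0.04 for *Dnajb6*, -0.04 for *Hsf1*, -0.07 for *Hsf2*, -0.04 for *Hspa8* and -0.04 for *Hspb8*. With no filter beyond 1 count in total, values were -0.0052 for *Hsf1*, -0.0014 for *Hsf2*, -0.003 for *Hspa8* and -0.006 for *Hspb8*. With at least 10 counts in every library, values were -0.0002 for *Hsf1* and -0.0015 for *Hspb8*. With transcript length offsets, values were -0.03 for *Hsf2* and -0.0018 for *Hspb8*. With 1 tissue left out, values ran from -0.38 to 0.03 for *Dnaja1*, from -0.08 to 0.0092 for *Dnaja2*, from -0.08 to 0.11 for *Dnaja3*, from -0.10 to 0.06 for *Dnaja4*, from -0.21 to 0.07 for *Dnajb1*, from -0.04 to 0.13 for *Dnajb2*, from -0.06 to 0.05 for *Dnajb5*, from -0.06 to 0.06 for *Dnajb6*, from -0.05 to 0.26 for *Dnajc3*, from -0.02 to 0.12 for *Dnajc5*, from -0.05 to -0.0025 for *Hsf1*, from -0.04 to -0.00087 for *Hsf2*, from -0.16 to 0.06 for *Hspa12a*, from -0.30 to 0.39 for *Hspa12b*, from -0.0062 to 0.13 for *Hspa4*, from -0.05 to 0.32 for *Hspa5*, from -0.10 to 0.06 for *Hspa8*, from -0.17 to 0.84 for *Hspb2*, from -0.26 to 0.25 for *Hspb6* and from -0.19 to 0.25 for *Hspb8*.

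In liver against brain, these log2 fold changes turned sign. With library size scaling, values were -0.04 for *Dnaja1*, -0.73 for *Dnaja2*, -0.16 for *Dnaja3*, -0.19 for *Dnajb1*, -1.04 for *Dnajb2*, -1.19 for *Dnajb6*, -0.87 for *Hspa13*, -0.42 for *Hspa14*, -1.09 for *Hspa4* and -0.24 for *Hspa8*. With limma on log2(TPM + 1), values were -0.42 for *Dnaja1*, -1.08 for *Dnaja2*, -0.50 for *Dnaja3*, -0.53 for *Dnajb1*, -1.22 for *Dnajb2*, -1.58 for *Dnajb6*, -1.18 for *Hspa13*, -0.72 for *Hspa14*, -1.43 for *Hspa4* and -0.60 for *Hspa8*. With limma on log2(TPM + 0.1), values were -0.42 for *Dnaja1*, -1.09 for *Dnaja2*, -0.51 for *Dnaja3*, -0.54 for *Dnajb1*, -1.24 for *Dnajb2*, -1.62 for *Dnajb6*, -1.23 for *Hspa13*, -0.77 for *Hspa14*, -1.45 for *Hspa4* and -0.60 for *Hspa8*. With DESeq2, the value was -0.07 for *Dnajb6*. With at least 10 counts in every library, the value was -0.04 for *Dnajb6*. With transcript length offsets, the value was -0.15 for *Dnajb6*. With 1 library left out, values ran from -0.11 to 0.15 for *Dnaja4*, from -0.06 to 0.11 for *Dnajb6* and from -1.06 to 0.26 for *Hspa12b*.

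In SCN against cortex, these turned sign. With library size scaling, values were 0.03 for *Dnaja1*, 0.11 for *Dnaja3*, 0.02 for *Dnajb11*, 0.11 for *Dnajb4*, 0.15 for *Dnajb9*, 0.07 for *Dnajc5*, 0.01 for *Hspa4*, 0.14 for *Hspa8*, 0.09 for *Hspa9* and 0.00091 for *Hsph1*. With DESeq2, the value was 0.0024 for *Dnajb9*. With transcript length offsets, the value was 0.11 for *Dnajb9*. With limma on log2(TPM + 1), the value was 0.11 for *Dnajb9*. With limma on log2(TPM + 0.1), the value was 0.11 for *Dnajb9*. With 1 library left out, values ran from -0.35 to 0.10 for *Dnaja1*, from -0.19 to 0.07 for *Dnaja3*, from -0.04 to 0.47 for *Dnajb1*, from -0.11 to 0.0046 for *Dnajb4*, from -0.14 to 0.11 for *Dnajb9*, from -0.20 to 0.0061 for *Dnajc5*, from -0.16 to 0.74 for *Hspa12b* and from -0.12 to 0.05 for *Hspa8*.

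There was 1 library per genotype and tissue, the fit left 2 residual degrees of freedom, and the cortex and *duper* SCN libraries had the fewest counts.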
